A study of Mus musculus with 6 samples.

Results

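The 7 genes described here encode the MHC class II antigen presentation machinery: the classical chains H2-Ab1, H2-Aa and H2-Eb1, the peptide exchange factor chains H2-DMa and H2-DMb1, the invariant chain Cd74 and the transactivator Ciita. They were taken by name from the 54838 Ensembl gene IDs counted in each library, and all 7 passed the filter on low counts. The cells were intestinal cells with a high green fluorescent protein signal, sorted from mice labelled B6.129P2-Lgr5tm1(cre/ERT2)Cle/J, in which the reporter and the CreERT2 recombinase are expressed from the Lgr5 locus. Sorting was done on 3 days, each with the pooled intestines of 4 mice, and the cells were set in Matrigel in crypt medium with JAG-1 at 1 µM and CHIR99021 at 3 µM, an inhibitor of the kinase GSK3. From 4 h after embedding, cultures received INT-777 at 30 µM, a synthetic bile acid derivative that activates the receptor TGR5, or the solvent DMSO. The treatment lasted 12 h according to the sample labels and 16 h according to the design text. There were 3 DMSO and 3 INT-777 libraries, 1 of each per day. All 6 share the reporter allele, the sorting on a high fluorescent signal and the medium, but each day was a separate sort. The age and sex of the mice are not given in the sources used here.

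Each library held 45682340 to 47905087 read pairs assigned to genes. The stem cell marker Lgr5 was at 53.7 to 74.5 CPM (read pairs per 1e+06 assigned pairs, scaled between libraries) and the epithelial adhesion gene Epcam at 804 to 909 CPM in all 6. Both libraries of day 3 stood apart from those of days 1 and 2. Their RNA integrity number was the lowest of each group: 9.3, 9.6 and 8.7 with DMSO on days 1, 2 and 3, and 9.2, 9.2 and 9 with INT-777. The part of RNA quality in the differences between days was not tested. The summed level of 7 goblet cell markers was 5456 and 5364 CPM with DMSO on days 1 and 2 but 27376 CPM on day 3, and 2891, 2779 and 12006 CPM with INT-777. That of 5 enteroendocrine markers was 474 to 517 CPM on days 1 and 2, and 2338 (DMSO) and 1781 CPM (INT-777) on day 3. Of these markers, 6 of the 7 and 5 of the 5 were called higher on day 3 (edgeR adjusted p under 0.05), as were 11.9% of all genes tested. The summed level of 8 stem cell markers was 2556, 2537 and 2171 CPM with DMSO on days 1, 2 and 3. With INT-777 it was 2170, 2140 and 1729 CPM. Of the 8, 4 were called lower on day 3 and 1 higher, where 8.61% of all genes were lower. Lgr5 was among the lower ones (log2 −0.27, edgeR adjusted p = 0.00327). Calls between days here and below come from an F-test of both day terms together, with treatment in the model. Higher or lower on day 3 is the sign of day 3 against the mean of days 1 and 2, which had no test of its own. These are bulk libraries, in which fewer cells of a type and less RNA per cell cannot be told apart.

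MHC class II molecules are pairs of an alpha and a beta chain that carry peptides from the endosomal pathway to the cell surface, where CD4 T cells read them. The invariant chain binds newly made pairs and blocks their groove until cathepsins degrade it, after which H2-DM exchanges its last fragment for a peptide. Ciita does not bind DNA itself; it is recruited to factors that sit on paired X and Y boxes just upstream of class II genes, and interferon gamma induces it in cells other than professional antigen-presenting cells. Intestinal epithelium, Lgr5-expressing stem cells included, is known to express class II genes, more strongly during inflammation.

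The promoter letters that this regulation works on are shown for the pair of classical genes whose starts agree in RefSeq and GENCODE. Sequences were taken from RefSeq (GRCm38.p6), where 4 of the 7 genes had an entry, with 5 listed starts. Capitals mark TGATTGG, which holds the inverted CCAAT core of the Y box, and the X-side letters AACTGATG (X box) or TGACGTCA (the cAMP response element form of the X2 box). The X-side letters were chosen after the sequences had been read.
H2-Aa, chr17:34287849-34287928, minus strand: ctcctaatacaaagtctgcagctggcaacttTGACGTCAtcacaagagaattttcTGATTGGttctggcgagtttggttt
H2-Eb1, chr17:34305751-34305830, plus strand: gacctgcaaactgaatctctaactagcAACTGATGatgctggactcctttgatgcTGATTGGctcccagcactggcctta
In H2-Aa the Y-side letters began 50 bases before the start, 16 bases after the X2 letters. In H2-Eb1 they began 61 bases before the start, 20 bases after the X-box letters. The H2-DMb1 promoter held AACTGATG and TGATTGG too, 21 bases apart, with the latter 63 bases before its listed start. Neither listed start of H2-DMa had any of the 3 words in its 250 upstream bases. Searched on both strands in the 250 bases upstream of 32851 listed starts of all genes, TGATTGG was found at 7.23%, AACTGATG at 0.676%, TGACGTCA at 1.55%, and TGATTGG together with either X-side word at 0.201%. A match is a description of letters, not a measured binding site.

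The members differed widely in level per kilobase of annotated exon. In the DMSO libraries Cd74 was at 7.88 ± 4.32 CPM per kb (mean ± SD, n = 3), H2-Ab1 at 5.15 ± 0.0957, H2-Eb1 at 1.25 ± 0.426, H2-DMa at 1.20 ± 0.110, H2-DMb1 at 0.301 ± 0.130, H2-Aa at 0.295 ± 0.0474 and Ciita at 0.0644 ± 0.0114. Neighbours in this order overlapped for Cd74 and H2-Ab1, H2-Eb1 and H2-DMa, and H2-DMb1 and H2-Aa, while H2-Ab1 lay above H2-Eb1, H2-DMa above H2-DMb1, and H2-Aa above Ciita in all 3 DMSO libraries. Of the genes tested, 61.9% had a lower level per kb than Cd74 and 52.3% a lower level than H2-Ab1, but for Ciita it was 2.08%. The median gene was at 4.58 CPM per kb.

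The partner chains of one molecule were not equally abundant. H2-Ab1 exceeded H2-Aa, the alpha chain with which it pairs, by 20.5, 17.3 and 15.4 times per kb with DMSO on days 1, 2 and 3, and by 20.4, 15.9 and 10.9 times with INT-777. H2-DMa exceeded H2-DMb1 by 2.86 to 7.35 times. The exon length used is the union of all annotated transcripts, 2568 nt for H2-Ab1 and 3798 nt for H2-Aa, so these ratios move with the annotation; in CPM without length, H2-Ab1 was at 13.2 ± 0.246 and H2-Aa at 1.12 ± 0.180 with DMSO. H2-Ea, the alpha chain that pairs with H2-Eb1 and is known to be defective in the haplotype of C57BL/6 mice, had 0 read pairs in each library, as had H2-Eb2. A count of 0 allows up to 0.0651 CPM in a library, and a level under that could not be seen. The remaining class II genes of the region were near that limit: H2-DMb2 had 4 pairs in each day 3 library and 0 elsewhere, H2-Oa 0 to 5 and H2-Ob 0 to 4. H2-DMb1 and H2-DMb2 are close relatives, and pairs that matched both had been left out of the counts.

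None of the 7 genes passed the test of INT-777 against DMSO without the day as a term (edgeR quasi-likelihood test, Benjamini-Hochberg adjusted p under 0.05, two-sided), where 1.45% of the 15998 genes tested did. DESeq2, which called 4.99% of all genes, and limma-voom also called none. At an unadjusted p under 0.05 it was 1 member, H2-Ab1, where 16.4% of all genes passed and 7.42% passed as lower. Every member had a negative log2 change, with a median of −0.33 against 0.00 over all genes, of which 49.3% were negative. The sign was shared by other lists: all 15 MHC class I genes and all 7 goblet cell markers were negative. Of 7 epithelial markers 1 was. With the day as a block, 3 members were lower with INT-777 and none higher, namely H2-Ab1, H2-Eb1 and Cd74, where 10.3% of all genes were lower and 21.3% changed in either direction. The replicate number is the day in the labels, so the block compares libraries of the same day.

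**Figure D1:**
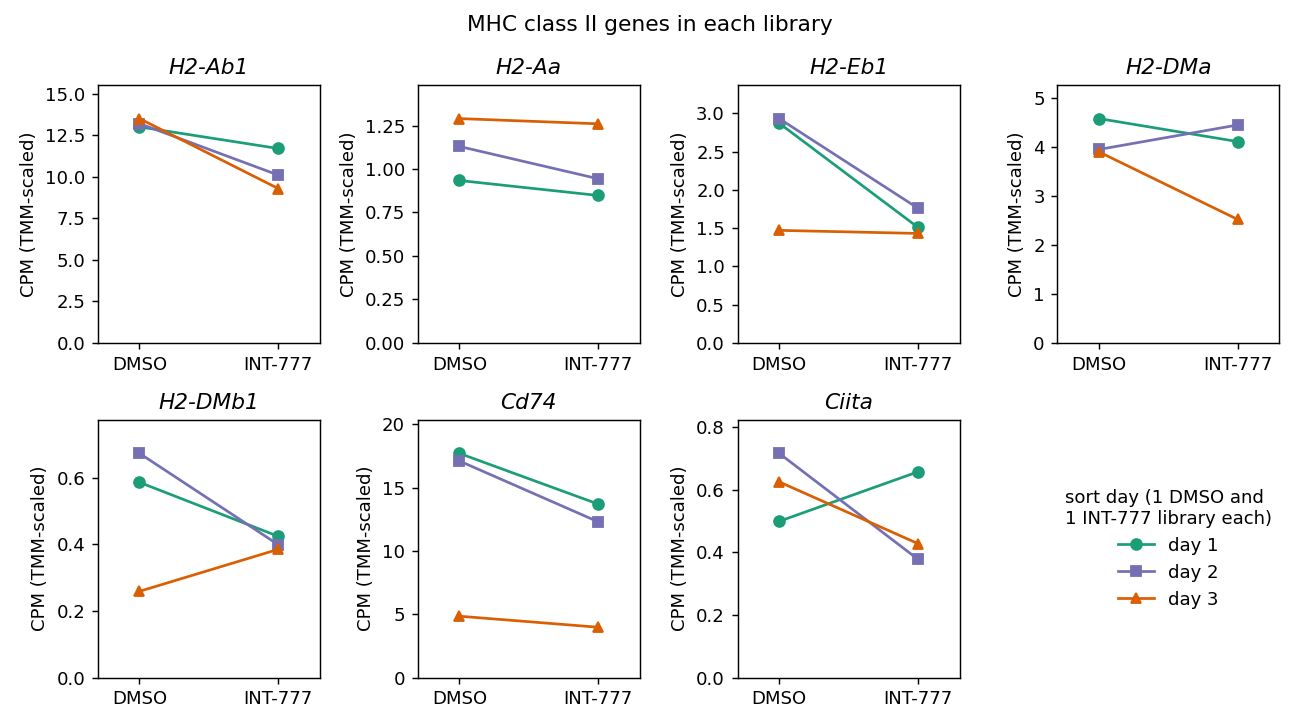
Level of each of the 7 genes in CPM (vertical axes from 0, a different scale for each gene) in the DMSO and the INT-777 library of each day, joined by a line per day. H2-Ab1 is the single gene with all INT-777 libraries below all DMSO libraries, and Cd74 on day 3 lies far below days 1 and 2 in both groups.

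Among the classical chains, the beta chain gene H2-Ab1 (chromosome 17, 34257689 to 34269419, GRCm38) was at 13.0, 13.2 and 13.5 CPM with DMSO on days 1, 2 and 3 and at 11.7, 10.1 and 9.29 CPM with INT-777. All 3 INT-777 libraries lay below all 3 DMSO libraries, the DMSO values being nearly the same on each day; 11.0% of all genes had such a gap in that direction and 24.5% in either. The log2 change was −0.35 ± 0.10 (SE; edgeR adjusted p = 0.154), a 1.27-fold lower level, and −0.35 ± 0.09 with the day as a block (edgeR adjusted p = 0.00799).

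H2-Aa (chromosome 17, 34282744 to 34287823), the matching alpha chain, rested on few counts: 43, 52 and 60 read pairs with DMSO on days 1, 2 and 3, and 40, 45 and 59 with INT-777. The groups overlapped fully. The fit gave −0.14 ± 0.23 on the log2 scale (edgeR adjusted p = 0.814, and 0.698 with the block).

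H2-Eb1 (chromosome 17, 34305867 to 34316674), the beta chain of the second class II molecule, was at 2.87, 2.93 and 1.47 CPM with DMSO and at 1.51, 1.76 and 1.43 CPM with INT-777. The DMSO libraries of days 1 and 2 were high, and that of day 3 was as low as the INT-777 libraries. The log2 difference was accordingly −0.93 and −0.73 on days 1 and 2 and −0.03 on day 3. The fit gave −0.63 ± 0.27 without the block (edgeR adjusted p = 0.312) and −0.60 ± 0.18 with it (edgeR adjusted p = 0.0311). DESeq2 with the block did not call it.

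The peptide exchange factor showed no shared direction by day. H2-DMa (chromosome 17, 34119541 to 34139101) was at 4.58, 3.95 and 3.90 CPM with DMSO and 4.11, 4.45 and 2.52 CPM with INT-777, a log2 change of −0.16 ± 0.22 (edgeR adjusted p = 0.752). Its one low library was INT-777 on day 3, and without that library the log2 change turned to 0.04. Of its exon bases, 10.4% are shared with Brd2 on the other strand, and pairs that fell on both genes had been left out. H2-DMb1 (chromosome 17, 34153072 to 34160230) had 27, 31 and 12 read pairs with DMSO and 20, 19 and 18 with INT-777. Its lowest library was the DMSO library of day 3, so the INT-777 level was lower on days 1 and 2 and higher on day 3 (log2 change −0.33 ± 0.37, edgeR adjusted p = 0.709).

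Cd74 (chromosome 18, 60803848 to 60812652), the invariant chain, which shares 0.715% of its exon bases with Mir5107 on the same strand, was at 17.7, 17.1 and 4.85 CPM with DMSO on days 1, 2 and 3, and at 13.7, 12.3 and 3.98 CPM with INT-777. The INT-777 library was the lower on each day, by log2 −0.38, −0.48 and −0.29, but the difference between days was larger than that between treatments. Without the block the log2 change of −0.41 ± 0.69 did not pass (edgeR adjusted p = 0.817). With it, −0.39 ± 0.08 did (edgeR adjusted p = 0.00248), which is the smallest adjusted p of the 7 in that fit.

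Ciita (chromosome 16, 10480059 to 10528418), the transactivator of the other 6 genes, had 23, 33 and 29 read pairs with DMSO and 31, 18 and 20 with INT-777. The groups overlapped, with INT-777 higher on day 1 and lower on days 2 and 3. Its log2 change was −0.33 ± 0.30 (edgeR adjusted p = 0.624, and 0.500 with the block), so a change of this size could not be told from the spread at this depth. Of its exon bases 3.45% are shared with Dexi on the other strand.

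**Figure D2:**
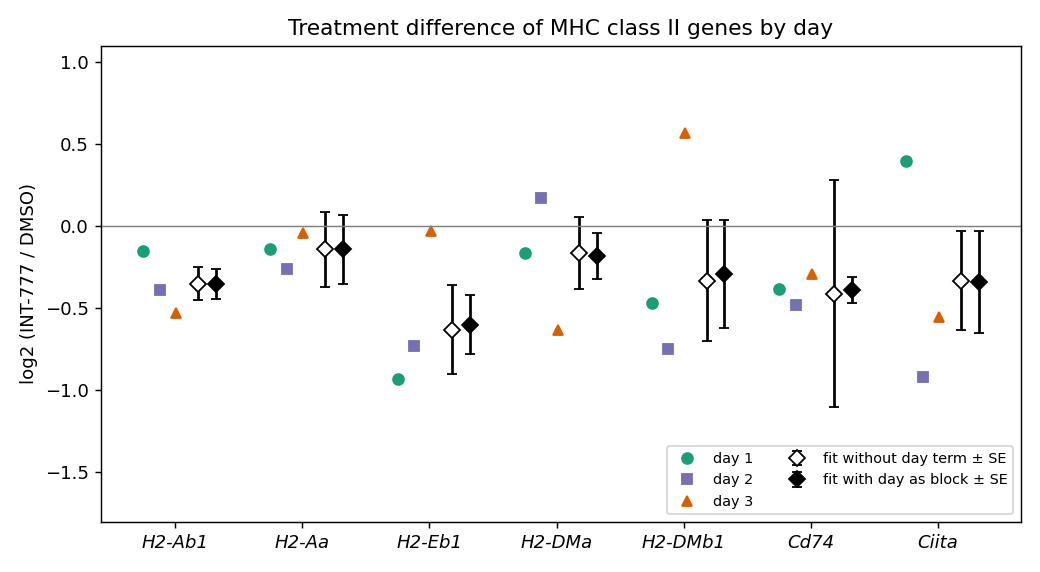
log2 ratio of INT-777 to DMSO for each gene on each day (coloured symbols) and in the fits without and with the day as a block (open and filled diamonds, bars are 1 SE). H2-Ab1, H2-Aa, H2-Eb1 and Cd74 lie below 0 on all 3 days, while H2-DMa, H2-DMb1 and Ciita each lie above 0 on 1 day.

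In 4 of the 7 genes the INT-777 library was the lower on all 3 days, which held for 25.3% of all genes tested. Across genes, the deviations from the group mean of the DMSO library of day 1 correlated with those of the INT-777 libraries of days 1, 2 and 3 at 0.329, 0.363 and −0.478. For the DMSO library of day 2 they were 0.336, 0.369 and −0.487, and for that of day 3 −0.435, −0.480 and 0.632. Without both libraries of day 3 the calls were again H2-Ab1, H2-Eb1 and Cd74, without the block (26.8% of all genes called, 12.9% as lower) and with it (24.1%). DESeq2 with the block called H2-Ab1 and Cd74 (14.2% of all genes), and limma-voom with the block all 3 (21.3%). With the block and without both libraries of day 1, H2-Ab1 and Cd74 were called (20.0% of all genes), and without those of day 2 H2-Ab1 alone (12.0%). H2-Ab1 was the single member called in each of these blocked fits. A direct test of whether the treatment difference on day 3 departs from that on days 1 and 2, chosen after the values had been seen, called none of the 7 (edgeR interaction term) and 7.01% of all genes. At an unadjusted p under 0.05 it held H2-DMa (log2 −0.63 ± 0.24, edgeR adjusted p = 0.0964) and H2-Eb1 (0.79 ± 0.34, edgeR adjusted p = 0.159), against 20.4% of all genes.

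Between days, Cd74 was the single member to change, and the change was large. Its level on day 3 was 3.42-fold below that of days 1 and 2, a log2 difference of −1.78 (edgeR F-test of the day terms with treatment in the model, adjusted p = 6.83e-09); the day test called 20.5% of all genes, 8.61% with a lower level on day 3. The difference was −1.71 to −1.84 when each of the 6 libraries was left out in turn, and Cd74 was called in each. For H2-Ab1, the other abundant member, it was −0.09 (edgeR adjusted p = 0.671). The ratio of Cd74 to H2-Ab1 per kb was 1.78 to 2.09 in the libraries of days 1 and 2, and 0.551 and 0.655 in those of day 3. H2-Eb1 (log2 −0.60), H2-DMa (−0.42) and H2-DMb1 (−0.67) had lower values on day 3 and H2-Aa a higher one (0.41), and none of the 4 passed (edgeR adjusted p of 0.107, 0.159, 0.449 and 0.347). H2-Eb1 was called between days without INT-777 replicate 1 (log2 −0.72, edgeR adjusted p = 0.0195) and without INT-777 replicate 3 (−0.98, edgeR adjusted p = 7.15e-04), and H2-DMa without DMSO replicate 3 (−0.77, edgeR adjusted p = 5.65e-04). Ciita was level, with a log2 difference of −0.10 (edgeR adjusted p = 0.965).

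Many markers of immune cells, which include the professional class II expressing cells, went the other way between days. Others did not, among them the 3 tested markers of macrophages and dendritic cells, Itgam, Mrc1 and Zbtb46. Their log2 differences on day 3 were −0.06, −0.17 and −0.09 (edgeR adjusted p of 0.752, 0.452 and 0.932). Itgam was named after its values were seen. Ptprc, the pan-leukocyte gene, had 0, 0 and 70 read pairs with DMSO on days 1, 2 and 3, and 3, 4 and 61 with INT-777. Cd3e of T cells had 0 to 2 pairs on days 1 and 2 and 7 and 15 on day 3, Cd79a of B cells 4 to 9 and then 17 and 20, Itgax of dendritic cells and macrophages 0 to 2 and then 12 and 9, and Csf1r of macrophages 0 to 4 and then 10 and 14. Of 58 immune markers, 28 to 32 were at 0 in each library of days 1 and 2, while on day 3 it was 10 for DMSO and 7 for INT-777. The 5 most abundant of the 58 (Mrc1, Vav1, Itgae and Zbtb46 among them) had 67 or more read pairs in every library. The summed level of all others was 2.39 and 3.08 CPM with DMSO and 2.14 and 2.62 CPM with INT-777 on days 1 and 2, and 19.9 and 16.7 CPM on day 3. Cd74 was at its highest, with 816 and 788 read pairs, in the libraries with no read pair of Ptprc, and H2-Ab1 had 597 and 610 there. Other immune markers were present in these libraries, with 758 and 789 read pairs of Mrc1, 83 and 81 of Vav1, and 31 and 28 of Coro1a. H2-Ab1 was at its highest, with 624 read pairs, in the DMSO library of day 3, which had 70 of Ptprc. H2-Aa had 60 and 59 read pairs in the libraries of day 3, and 40 to 52 in those of days 1 and 2. The granzyme gene Gzma of cytotoxic lymphocytes was at 0 in all 4 libraries of days 1 and 2. Of the tested markers of the pan-leukocyte list, Coro1a and Rac2 were called higher on day 3 (log2 1.52 and 3.04, edgeR adjusted p of 3.58e-04 and 7.34e-04), as was Igkc of plasma cells (2.56, edgeR adjusted p = 3.40e-04); Rac2 was named after its values were seen. On day 3 the treatment groups differed in the summed level of the 10 B and plasma cell markers, 6.14 CPM with DMSO and 2.97 CPM with INT-777, with 116 and 23 read pairs of Igha. On days 1 and 2 that sum was 0.608 and 0.890 CPM with DMSO, and 0.488 and 0.609 CPM with INT-777. Igkc was lower with INT-777 on each day, at 14, 10 and 60 read pairs with DMSO and 2, 4 and 27 with INT-777. Its log2 change was −1.36 ± 1.06 (edgeR adjusted p = 0.572), and −1.44 ± 0.38 with the block (edgeR adjusted p = 0.0136). The 15 T cell and intraepithelial lymphocyte markers were at 8.19 and 7.70 CPM on day 3. The 20 markers of macrophages and dendritic cells were at 15.6 and 22.5 CPM on day 3, most of it Mrc1. The last list was at 18.3 and 19.4 CPM with DMSO and 20.2 and 20.9 CPM with INT-777 on days 1 and 2. On days 1 and 2 alone, H2-Ab1 had a log2 change of −0.27 (adjusted p = 0.00833 in edgeR), H2-Eb1 −0.83 (edgeR adjusted p = 2.38e-04) and Cd74 −0.43 (edgeR adjusted p = 8.51e-06). That fit called 26.8% of all genes, and 12.9% as lower. The part of immune cells in the class II counts of any day was not tested. Nor was that of the higher goblet and enteroendocrine levels and the lower summed stem cell marker level of day 3 in the Cd74 difference.

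**Figure D3:**
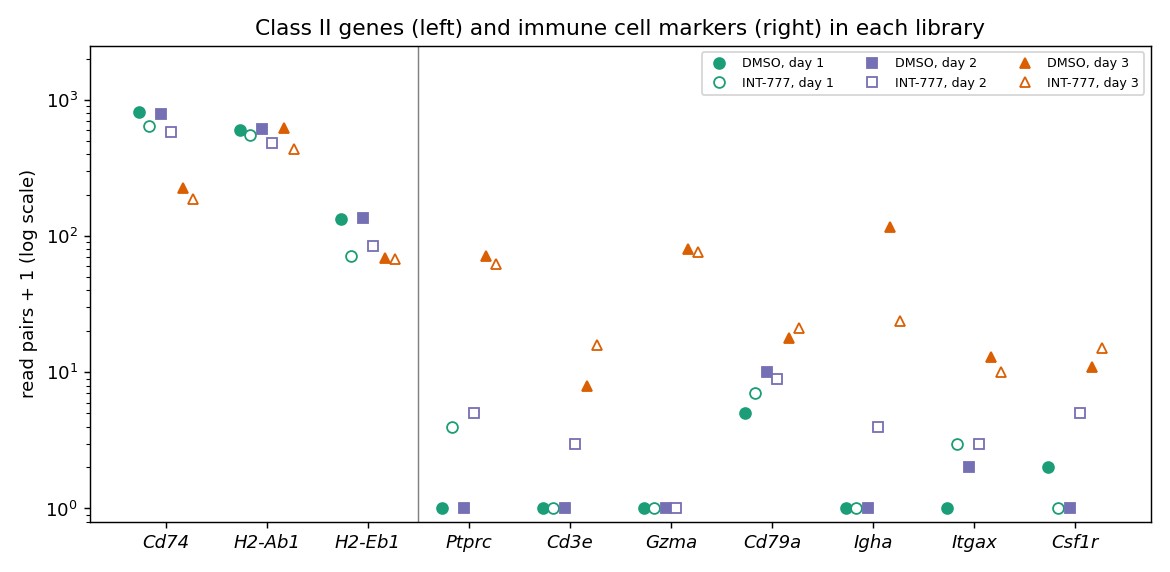
Read pairs plus 1 (log axis) of Cd74, H2-Ab1 and H2-Eb1 and of 7 immune cell markers in each library, by day and treatment; a symbol at the bottom stands for 0 pairs. On day 3 the markers are higher (Ptprc 70 and 61 pairs) and Cd74 is lower (225 and 186 pairs) than on days 1 and 2.

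Whether the lists of neighbouring steps differ from the class II genes was not tested. Of all genes, 10.3% were called lower and 11.1% higher with the block. Between days, 11.9% of all genes were called higher on day 3 and 8.61% lower. Among 7 genes of endosomal peptide processing, Ctsh, the gene of the aminopeptidase cathepsin H, fell with INT-777, and none rose without the block. It went from 160.1, 159 and 164 CPM to 100.1, 106 and 115 CPM (log2 −0.59 ± 0.06, edgeR adjusted p = 0.00740). The groups did not overlap, and 11.0% of all genes had such a gap in that direction. The call was lost when replicate 1 or 2 of DMSO, or replicate 1 or 2 of INT-777, was left out (edgeR adjusted p of 0.0617, 0.0579, 0.0597 and 0.0813), with a log2 change of −0.54 to −0.65 over the 6 leave-outs. Ctss, the gene of cathepsin S, which cuts the invariant chain, was at 3.34, 3.86 and 4.31 CPM with DMSO and 2.40, 2.39 and 2.14 CPM with INT-777 (log2 −0.73 ± 0.15, edgeR adjusted p = 0.0649, and 0.00177 with the block); it was named after its values were seen. With the block 4 of the 7 were lower, Ctsh, Ctss, Ctsb and Ctsd, and 1, Ctsl, higher. Between days Ctsl (log2 0.74, edgeR adjusted p = 1.59e-08), Ctsd (0.35, edgeR adjusted p = 6.83e-05) and Lgmn (0.25, edgeR adjusted p = 0.0143) were higher on day 3, opposite to Cd74. Ctsb and Lgmn, both endosomal proteases, were named after their values were seen.

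Of 10 factors that act on the class II promoter none passed without the block, and Rfx5 and Kat2b were lower with it. Rfx5, which binds the X box, was at 11.8, 12.4 and 14.9 CPM with DMSO and 9.67, 10.1 and 9.14 CPM with INT-777 (log2 −0.43 ± 0.11, edgeR adjusted p = 0.116, and 0.00357 with the block). All its INT-777 libraries lay below all its DMSO libraries, as in 11.0% of all genes. For the Y box factor gene Nfya it was 0.09 ± 0.06 (edgeR adjusted p = 0.484). Between days, the acetyltransferase gene Kat2b was higher on day 3 (log2 0.35, edgeR adjusted p = 0.00292) and the Y box subunit Nfyc lower (−0.20, edgeR adjusted p = 0.0263; not called without DMSO replicate 2, at 0.201, or INT-777 replicate 2, at 0.122).

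Of 11 genes that lead from interferon gamma to Ciita, 10 were tested and none passed when the day was left out of the model. With the block 2 were higher and 3 lower, the latter being Irf1, Jak2 and the receptor chain Ifngr2 (log2 −0.16 ± 0.05, edgeR adjusted p of 0.169 and, with the block, 0.0139; named after its values were seen). The cytokine gene Ifng itself had 3 read pairs in the DMSO library of day 3 and 0 in the other 5. The higher ones were the feedback inhibitors Socs1 (2.61, 2.95 and 2.13 CPM with DMSO; 3.54, 4.41 and 4.64 with INT-777; log2 0.71 ± 0.17, edgeR adjusted p = 0.112) and Socs3 (log2 0.50 ± 0.11, edgeR adjusted p = 0.0815), at edgeR adjusted p of 0.00264 and 5.44e-04 with the block. Irf1 was higher on day 3 (log2 0.37, edgeR adjusted p = 7.65e-04), with −0.35 ± 0.14 for the treatment (edgeR adjusted p = 0.290, and 4.08e-04 with the block), and the kinase gene Jak2 had −0.24 ± 0.07 for the treatment (edgeR adjusted p = 0.143, and 0.00288 with the block). Among 7 tested targets of interferon gamma none passed without the block and 2 were lower with it, Irgm1 (log2 −0.35 ± 0.10) and Gbp7 (−0.84 ± 0.31). Between days Irgm1 was called higher on day 3 (log2 0.24, edgeR adjusted p = 0.0444), a call lost when replicate 1, 2 or 3 of DMSO (0.103, 0.250 and 0.418) or replicate 2 of INT-777 (0.109) was left out, and Cxcl10 did not pass (0.52, edgeR adjusted p = 0.156).

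Of 7 tested genes of co-stimulation and class II turnover, none passed without the block. Cd274, the ligand PD-L1, was at 3.43, 3.52 and 3.82 CPM with DMSO and 2.23, 2.25 and 2.50 CPM with INT-777 (log2 −0.63 ± 0.13, edgeR adjusted p = 0.0736, and 0.00310 with the block). Cd274 was the 1 gene of the list called with the block. The ubiquitin ligase gene Marchf8 had −0.10 ± 0.07 (edgeR adjusted p = 0.512). Cd83 was higher on day 3 (log2 1.03, edgeR adjusted p = 0.00477, and 0.0988 without DMSO replicate 3), as were many of the immune markers.

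MHC class I genes, which present peptides from the cytosol, served as the nearest comparison. All 15 were tested, none passed without the block and 7 were lower with it (10.3% of all genes were). All 15 had a negative log2 change without the block, as had all 7 class II genes. The median was −0.15 against −0.33 for class II, and whether the families differ was not tested. B2m, the shared light chain, was at log2 −0.48 ± 0.09 (edgeR adjusted p = 0.0641) and the loading factor Tapbp −0.53 ± 0.11 (edgeR adjusted p = 0.0648). By day, 6 class I genes were higher on day 3 and 1 lower (11.9% and 8.61% of all genes). H2-T23 (log2 0.88, edgeR adjusted p = 2.71e-07) and B2m (0.24, edgeR adjusted p = 0.00148) were among those higher; H2-T23 belongs to a family of similar genes, so its count is uncertain. The lower gene was Nlrc5, the class I counterpart of Ciita, with 39, 36 and 19 read pairs with DMSO and 37, 37 and 16 with INT-777 (log2 −1.08, edgeR adjusted p = 0.0462). That call was lost without each of the 6 libraries in turn (edgeR adjusted p of 0.0649 to 0.174) and with DESeq2 (adjusted p = 0.339), although the log2 difference stayed between −0.99 and −1.19.

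**Figure D4:**
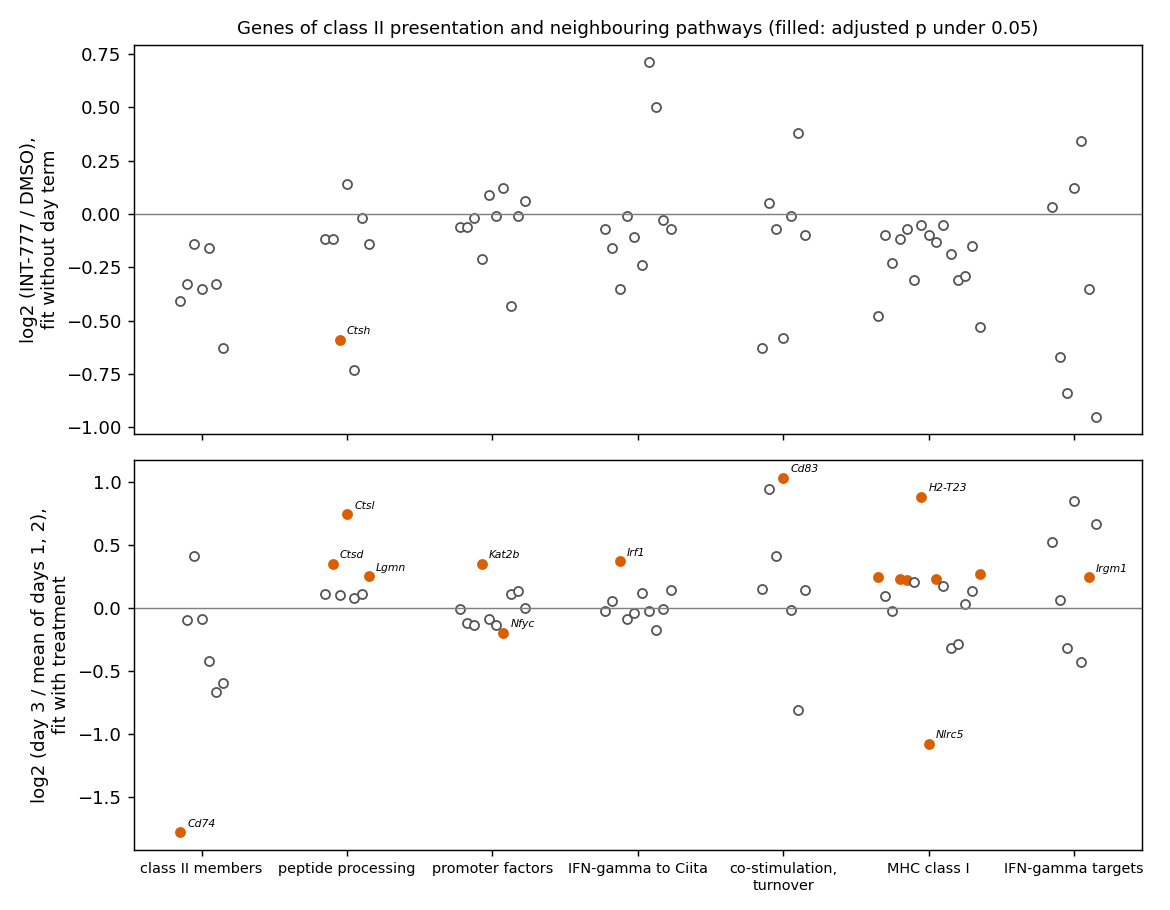
log2 change of each tested gene of 7 lists for INT-777 against DMSO (top, fit without the day) and for day 3 against days 1 and 2 (bottom). Filled symbols have an edgeR adjusted p under 0.05, which at the bottom is that of the F-test of both day terms together. In the class I list names are given for the largest differences. Ctsh is the single filled gene at the top, and Cd74 is the lowest point at the bottom, at −1.78.

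Without the block, 1 of 8 stem cell markers, 1 of 7 epithelial markers and none of the tested enterocyte, goblet, Paneth and pan-leukocyte markers were called for the treatment. The stem cell gene Smoc2 fell (log2 −0.45 ± 0.05, edgeR adjusted p = 0.0141; lost without DMSO replicate 1 or 2 or INT-777 replicate 1 or 2, at 0.0618 to 0.118), and the keratin gene Krt18 rose (0.31 ± 0.05, edgeR adjusted p = 0.0462; lost without any of the 6 libraries, at 0.0501 to 0.277).

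With the day as a block many more were called, as over all genes (10.3% lower and 11.1% higher). Of the 8 stem cell markers 7 were lower with INT-777, Lgr5 (log2 −0.17 ± 0.05, edgeR adjusted p = 0.0133) and Olfm4 (−0.66 ± 0.04, edgeR adjusted p = 3.41e-08) among them, and Ascl2 was higher (0.22 ± 0.06, edgeR adjusted p = 0.0202). Of 7 goblet cell markers 6 were lower, of 5 Paneth cell markers 3 were lower (Defa24, Mmp7 and Itln1), and of 9 tested enterocyte markers 2 were higher (Alpi and Krt20) and 4 lower (Apoa1 and Sis among them). Of 7 epithelial markers 3 were higher (Krt8, Krt18 and Vil1) and 1 lower (Cdh1), and none of the 4 tested pan-leukocyte markers was called. Among markers of single immune cell types, Igkc was called lower (log2 −1.44 ± 0.38, edgeR adjusted p = 0.0136). Mrc1 was called higher (log2 0.30 ± 0.09, edgeR adjusted p = 0.0338). Olfm4, Ascl2, Defa24, Mmp7, Apoa1, Sis, Krt8, Vil1 and Cdh1 were named after their values were seen, and the part of these differences in those of the class II genes was not tested. In the fit without the block, the 2 of smallest p were Alpi and Krt20 among enterocyte markers (log2 0.79 ± 0.18 for each, edgeR adjusted p of 0.115 and 0.116, and 1.36e-04 and 2.99e-08 with the block), Muc2 and Agr2 of goblet cells (−1.75 ± 0.63 and −1.02 ± 0.92, edgeR adjusted p of 0.280 and 0.641, and 0.0907 and 5.84e-07 with the block), and Cd52 and Coro1a of leukocytes (−0.42 ± 0.46 and 0.17 ± 0.60, edgeR adjusted p of 0.694 and 0.916, and 0.536 and 0.704 with the block).

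The measured profiles of the members over the 6 libraries differed. Those of H2-Aa, H2-DMb1 and Ciita rest on 12 to 60 read pairs per library. The part of counting noise in their values of r was not tested. Pearson's r of log2 CPM between pairs of members, each a description over 6 libraries that share days, ran from −0.77 for H2-Aa and Cd74 to 0.87 for H2-Eb1 and H2-DMb1. Cd74 had an r of 0.77 with H2-DMa, 0.79 with H2-DMb1 and 0.76 with H2-Eb1, 0.41 with H2-Ab1 and 0.25 with Ciita. Those closest to the mean profile of the 7 were Picalm, Sept8, Amot, Mtmr12 and Wwp1 (r of 0.995 to 0.998), out of 11661 other genes whose mean log2 CPM was 1 or more. The gene closest to Cd74 was Mme, which encodes the peptidase neprilysin, at 25.3, 25.2 and 13.7 CPM with DMSO and 23.3, 21.0 and 12.0 CPM with INT-777 (r = 0.998). It was lower on day 3 by log2 −0.88 (edgeR adjusted p = 9.26e-07), a smaller difference than that of Cd74. The closest genes to the others were Fam83c for H2-Ab1 (r = 0.997), Naxd for H2-Aa (0.989), Lgals1 for H2-Eb1 (0.992), Top2b for H2-DMa (0.998), Gm11545 for H2-DMb1 (0.995) and Nfatc1 for Ciita (0.990). These are the highest of 11661 values of r over 6 libraries each and have no test.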

How the data were processed

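Total RNA of 6 libraries was sequenced in pairs. FastQC, STAR 2.73a and edgeR 3.24.3 are listed in the submitters' processing notes, as are the builds GRCm38 and mm10; which gene annotation was used is not stated there. In the deposited files each gene has raw counts, unnormalised and whole. The column that ignores strand was used, since 50.1 to 50.6% of stranded counts fell on the first strand. Lines that are not genes (24.4 to 25.5% of pairs, among them multimapping and ambiguous pairs) were left out. Of 54838 IDs, 54809 matched GENCODE M21 (GRCm38).

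Tests were run in R 4.3.3 by edgeR 4.0.16 (filterByExpr by group, 15998 genes; TMM; robust quasi-likelihood test; Benjamini-Hochberg adjustment over all genes tested), limma 3.58.1 and DESeq2 1.42.0, and tested on simulated data. CPM are TMM-scaled. Each SE was obtained by dividing the size of the log2 change by the root of F. Correlations use log2 CPM with a prior count of 2.

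The members and lists were chosen with earlier results of these data known. Named genes are the members, in each list those called or otherwise the 2 of smallest p, in pathway lists also the 2 of smallest p between days, a few defining markers, and the closest profiles. Some cell type lists are given by sums only. Some marker genes are not reported here. The replicate number pairs libraries by day, per the labels. Same-day libraries deviated together (r of 0.329, 0.369 and 0.632). Libraries of days 1 and 2 did so as much across these days (0.363 and 0.336), so the values set apart day 3 alone. P-values measure the spread between these libraries, and day and sort cannot be told apart. Alternatives were other scaling, filters, tools and strand columns, the day block, and leaving out libraries and days.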

Additional observations from a re-analysis of the deposited data

How the results depend on the processing

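No member was called for INT-777 against DMSO under other scaling, filters, tools or strand columns, nor without any 1 library (0 in each). With day as replicate block 3 were called, with DESeq2 or limma-voom and that block (added after seeing the data) 2 and 3, without both libraries of day 3 it was 3, and with the block and without day 1, 2 or 3 (also added) 2, 1 and 3. The block changed no other call among the members. Over all genes, 232 were called, against 3415 with the block, 798 with DESeq2, 435 with no low-count filter, 2274 and 3413 with DESeq2 and limma-voom with the block, 8 to 273 without 1 library, and 0, 3 and 4292 without both libraries of day 1, 2 or 3 (for day 1, edgeR left 1189 at p under 0.05 before adjustment). With the block and without day 1, 2 or 3 it was 3247, 1940 and 3853. Leaving out 1 library gave log2 changes of −0.33 to 0.04 for H2-DMa, −0.81 to −0.04 for Cd74, −0.65 to −0.07 for H2-DMb1, −0.60 to −0.18 for Ciita, −0.33 to −0.02 for H2-Aa, −0.90 to −0.47 for H2-Eb1 and −0.44 to −0.28 for H2-Ab1, none of them called. Between days, 1 member was called, 3 with no low-count filter and 1 to 2 without 1 library, and over all genes 3273, or 2010 to 4867 without 1 library. The day difference of H2-Ab1 was 0.01 in strand column 4 and −0.24 to 0.04 without 1 library, and without 1 library that of Ciita was −0.38 to 0.18, of H2-DMb1 −1.27 to −0.10, of H2-DMa −0.77 to −0.13 and of H2-Eb1 −0.98 to −0.20. The cause was not tested, beyond the fewer libraries or genes in these fits. With 12 to 60 read pairs per library, H2-Aa, H2-DMb1 and Ciita are limited by depth.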
